A study of Mus musculus with 10 samples.

Results

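The heat shock proteins and chaperones were followed in the transcriptome of the tibialis anterior (TA), a shin muscle made mostly of fast fibres, in mice that carried Lewis Lung Carcinoma (LLC) tumors. The members were the protein-coding genes with a symbol of the small heat shock protein (HSP), HSP70, HSP90, HSP40 (DnaJ), chaperonin and BAG families, chosen by name and not by level. They numbered 86 of the 39179 gene identifiers counted, namely 8 small HSP, 13 HSP70 genes with the related Hsph1 among them, 3 HSP90, 45 HSP40, 11 chaperonin and 6 BAG genes. The 4 Control mice were injected with buffer (PBS), and the 6 LLC mice received cells of the LLC line, a mouse lung cancer line whose tumors bring on cachexia, under the skin of each flank. No engineered allele is named in the labels, and each mouse gave 1 library. The sample labels give C57BL/6J mice at 10 weeks, with a tumor development day of 23 for LLC and 0 for Control. The design text and methods of the study give C57BL/10 males at 8 weeks and 22 days, so strain, age and day are not settled. The LLC mice sequenced were survivors of the whole period, and all 10 libraries shared 1 lane. No batch of library preparation was given in the sources used here.

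Chaperones bind unfolded stretches of other proteins and help them fold, refold or reach degradation. HSP70 works in cycles of ATP use that HSP40 proteins start and that BAG and Hsph1 proteins reset by nucleotide exchange, HSP90 finishes kinases, receptors and other clients, small HSPs hold unfolding proteins without ATP, and chaperonins fold actin and tubulin (the CCT ring) or mitochondrial proteins (Hspd1 with Hspe1). In skeletal muscle these proteins guard the sarcomere, and the stress-induced genes among them are known targets of the heat shock transcription factor Hsf1, which binds repeats of a short inverted element.

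Of the 86 members, 75 had enough reads to be tested and 11 did not, with at most 4 reads in any library. Those 11 were Hspb9, Dnajb3, Dnajb7, Dnajb8, Dnajb13, Dnajc5b, Dnajc5g, Dnajc6, Dnajc22, Cct6b and Cct8l1, several of which are known from testis or other tissues. A level is given as CPM, the read count scaled to a common library total with TMM factors, and a gene was called when edgeR's quasi-likelihood test gave an adjusted p of at most 0.05 over all 12690 tested genes and the groups differed by at least 1.5-fold. Total counts ran from 16693209 to 21303084 per library, and the detection floor of 3 counts lay at 0.148 to 0.174 CPM. Mitochondrially encoded genes took 28.4% to 30.7% of the counts in Control and 22.0% to 27.9% in LLC, lowest in LLC 1. The 8 skeletal muscle fibre markers (such as Acta1 and Ckm) were present in every library, with a summed level of 117469 to 124529 CPM in Control and 78665 CPM (LLC 1) to 128582 CPM in LLC. Neutrophil markers were called higher in LLC for 10 of 10 tested genes (summed level 1.32 to 3.26 CPM in Control, 37.2 to 80.2 CPM in LLC), and fibroblast and fibro-adipogenic markers were called lower for 10 of 10 (547 to 678 CPM, then 119 to 203 CPM). Of other lists whose sums did not overlap, tendon markers had 3 of 4 called lower (42.5 to 52.0 CPM, then 6.84 to 25.1 CPM), slow fibre markers 1 of 7 called lower (65.6 to 119 CPM, then 39.7 to 54.2 CPM) and erythroid markers 3 of 5 called higher (58.8 to 83.4 CPM, then 88.7 to 144 CPM). In bulk muscle, fewer cells of a type and less RNA per cell cannot be told apart. The part of these other cells and of slow fibres in the results on the members was not tested.

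No member was called higher in LLC and 3 were called lower, namely Hspb6, Dnaja4 and Hspa12a. Over all tested genes 5.63% were called, 1.65% higher and 3.99% lower, so that 3 of 75 members (4.0%) lay near the share over all genes. Of the members, 50 had a log2 fold change (LLC minus Control) above 0 and 25 below, with a median of 0.09, against a median of 0.00 over all genes tested. With the test at an unadjusted p of at most 0.05 and no fold threshold, 14 members (18.7%) were higher and 6 (8.0%) lower, beside 12.7% and 14.6% of all genes. The libraries of the groups did not overlap for 11 members that were higher in LLC (14.7%, beside 6.4% of all genes) and for 7 that were lower (9.33%, beside 9.57%). The 11 were Hspb8, Hsph1, Hsp90ab1, Dnaja2, Dnajb2, Dnajb12, Dnajc2, Dnajc21, Cct2, Cct7 and Bag6, and the 7 were Hspb2, Hspb6, Hspa12a, Dnaja4, Dnajc4, Dnajc11 and Bag2. DESeq2's Wald test, the tool the authors used, called 3 members higher (Hsph1, Hsp90ab1 and Dnajb2) and 3 lower at the same thresholds, where 3.06% and 5.23% of all genes were called.

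**Figure D1:**
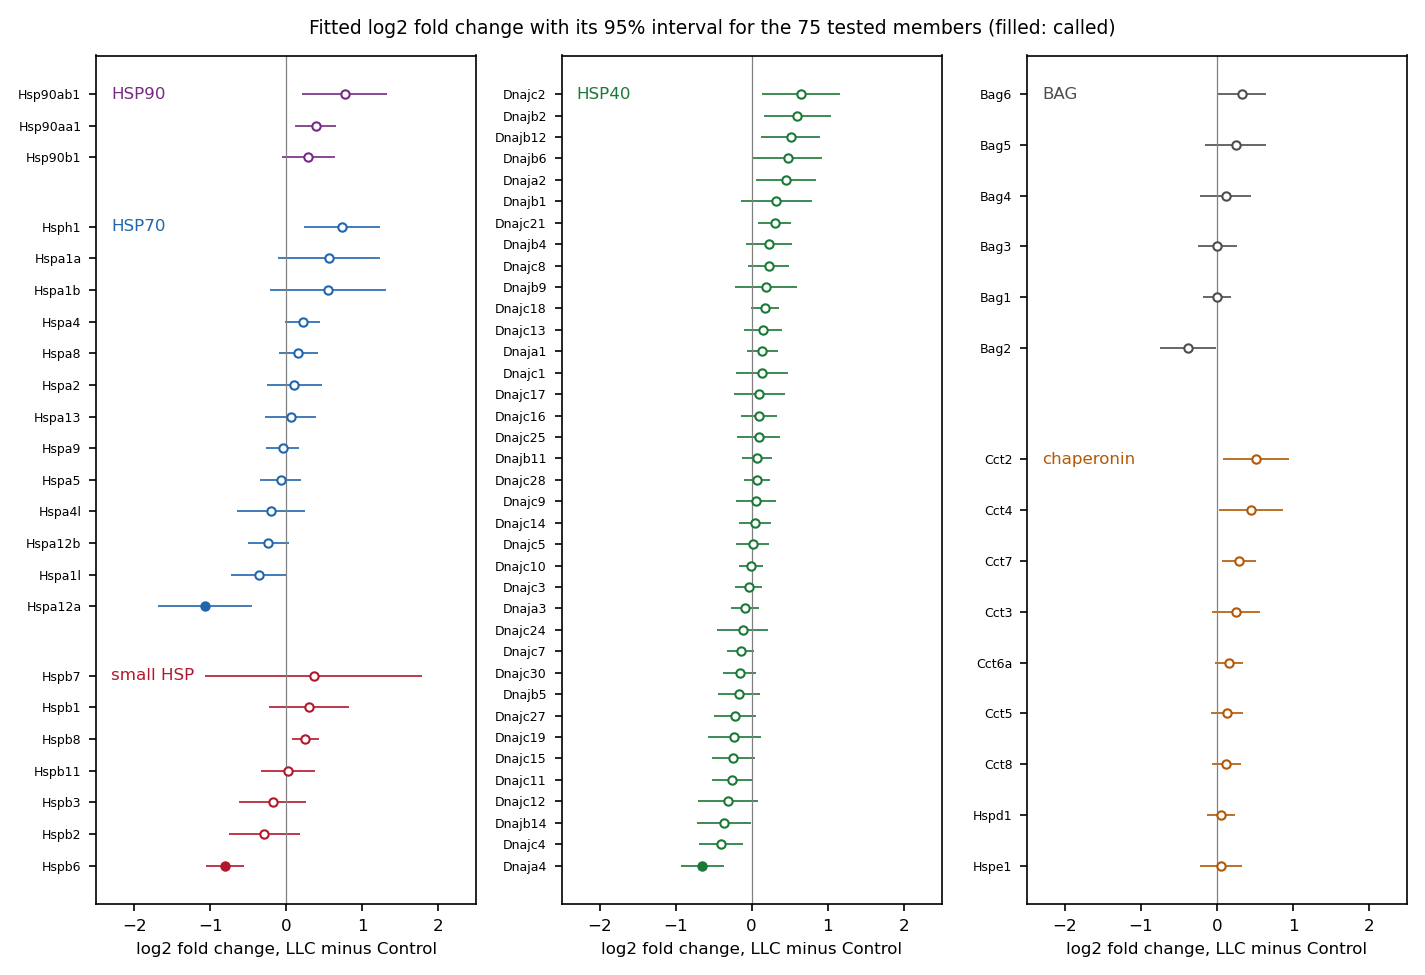
Fitted log2 fold change (LLC minus Control, x axis) of the 75 tested members, grouped by class, with 95% intervals as bars. Filled points mark the 3 called members, Hspb6, Dnaja4 and Hspa12a, which lie at -0.81, -0.65 and -1.07, while the 3 HSP90 and 9 chaperonin genes all have points above 0.

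Hspb6 (ENSMUSG00000036854, also known as Hsp20, a small HSP of muscle that binds Bag3 and is phosphorylated by cyclic nucleotide kinases) fell in LLC. Per kilobase of exon it was the most abundant member in Control, at 347 CPM per kilobase against 274 for Hsp90ab1, whereas in LLC the order was turned, with 198 for Hspb6 and 468 for Hsp90ab1. Its level was 891, 664, 786 and 847 CPM in the Control libraries and 396 to 529 CPM in the LLC libraries, with a median of 467. Every LLC library lay below every Control library, and LLC 1 at 400.3 CPM stood among its group. The log2 fold change was -0.81 ± 0.12 (SE; adjusted p = 0.00164), which puts the LLC level at 0.572 times that of Control. The call held with each library left out in turn, with adjusted p between 0.00057 and 0.00964. Hspb6 lies on chr7:30552178-30555443 (GRCm38, plus strand), where its exons overlap those of Proser3 and Lin37 on the other strand, both at most 6.64 CPM in any library, and of Gm38670 on its own strand.

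Dnaja4 (ENSMUSG00000032285, an HSP40 of the DnaJA type and a cochaperone of cytosolic HSP70) also fell. It had 45.1, 41.8, 46.5 and 54.2 CPM in Control and 23.0 to 36.7 CPM in LLC, with a median of 30.0 and no overlap. The log2 fold change was -0.65 ± 0.13 (adjusted p = 0.0128). The call was lost without Control 4 (-0.57, adjusted p = 0.0544) and without LLC 5 (-0.58, adjusted p = 0.0189, under 1.5-fold). Dnaja4 lies on chr9:54698873-54716315 (plus strand) and shares exonic bases with Wdr61 on the other strand, which had 12.3 to 17.0 CPM over all libraries. The strand setting of the counting is unknown, and the effect of this overlap on the counts of Dnaja4 was not tested.

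Hspa12a (ENSMUSG00000025092, a distant HSP70 relative) was the third and the rarest of the called members, at 0.70 CPM per kilobase in Control. It had 6.09, 5.43, 6.33 and 7.72 CPM in Control and 1.44 (LLC 1) to 4.40 CPM in LLC, with a median of 3.18. The groups did not overlap, and the 6 LLC libraries fell into 3 at 3.95 to 4.40 CPM (LLC 2, 3 and 4) and 3 at 1.44 to 2.40 CPM (LLC 1, 5 and 6). In LLC 2, 3 and 4, 26.1% to 27.9% of all genes lay above the Control range. In LLC 1, 5 and 6 that share was 33.7% to 40%, so the split was not particular to Hspa12a. The paper also placed its samples L2, L3 and L4 nearest to the controls. The log2 fold change of -1.07 ± 0.28 (adjusted p = 0.0438) was past the threshold by little, and leaving out 1 library ended the call in 6 of 10 cases, those of Control 1, 2, 3 or 4, LLC 5 or LLC 6, where adjusted p ran from 0.0782 to 0.136. Hspa12a lies on chr19:58795750-58943654 (minus strand), and its antisense neighbour Eno4 had at most 0.110 CPM.

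The 250 bases before the RefSeq start sites (GRCm38.p6) were read for the letters of the heat shock element, since the classic members of these families are heat shock genes. The element was searched on both strands as 2 units, GAANNTTC or TTCNNGAA, and as 3 units, GAANNTTCNNGAA or TTCNNGAANNTTC, each of which holds the 2-unit letters. Of 27025 genes with such a window 14.5% held the 2-unit letters and 0.514% the 3-unit letters, and of the 9642 tested genes with a window 12.3% and 0.487% did. Of 70 members with a window, 17 (24.3%) held 2 units and 3 (4.29%) held 3 units, the latter being Dnajb6, Hspd1 and Hspe1. Hspd1 and Hspe1 lie head to head, so the same letters may be counted for both in these shares. By class the 2-unit letters stood before 3 of 7 small HSP genes, 3 of 10 HSP70 genes, 0 of 1 HSP90 gene, 6 of 37 HSP40 genes, 5 of 10 chaperonin genes and 0 of 5 BAG genes. Among members with unadjusted p of at most 0.05, the letters stood before 3 of 10 that were higher and 2 of 6 that were lower, and among the other tested members before 11 of 45. A match describes letters and is not a bound site. The windows are printed for the 3 called members, for the 3 higher members with a match (Hsph1, Cct2 and Dnajb6) and for Hspd1, which held 3 matches in 1 run. For a gene with several starts the window with the most matches is given, 5′ to 3′ on the strand of the gene, with each match in capitals.

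The windows lie at chr7:30553051-30553300 (plus strand) for Hspb6, chr9:54699309-54699558 (plus strand) for Dnaja4, chr19:58943673-58943922 (minus strand) for Hspa12a, chr5:149636337-149636586 (minus strand) for Hsph1, chr10:117063376-117063625 (minus strand) for Cct2, chr5:29735648-29735897 (plus strand) for Dnajb6 and chr1:55087933-55088182 (minus strand) for Hspd1. Apart from that of Hspa12a, the RefSeq starts used here lie inside the gene spans of GENCODE release M21. The windows of Hspb6, Dnaja4, Cct2 and Hspd1 lie wholly within those spans, and those of Hsph1 and Dnajb6 in part.
Hspb6: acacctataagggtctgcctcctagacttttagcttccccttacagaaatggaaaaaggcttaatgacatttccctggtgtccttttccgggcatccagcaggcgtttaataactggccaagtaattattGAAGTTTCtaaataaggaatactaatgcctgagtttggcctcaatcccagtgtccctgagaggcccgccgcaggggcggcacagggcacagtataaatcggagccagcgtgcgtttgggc
Dnaja4: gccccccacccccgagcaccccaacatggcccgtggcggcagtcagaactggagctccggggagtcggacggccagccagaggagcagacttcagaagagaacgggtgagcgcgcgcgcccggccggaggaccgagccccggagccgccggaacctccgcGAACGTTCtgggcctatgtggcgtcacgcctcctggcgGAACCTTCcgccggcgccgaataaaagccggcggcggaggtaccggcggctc
Hspa12a: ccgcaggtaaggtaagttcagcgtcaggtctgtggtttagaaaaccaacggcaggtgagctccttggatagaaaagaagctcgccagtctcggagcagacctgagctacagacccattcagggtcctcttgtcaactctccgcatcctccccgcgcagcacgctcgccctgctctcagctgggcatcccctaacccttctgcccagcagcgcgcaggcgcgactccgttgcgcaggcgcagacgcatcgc
Hsph1: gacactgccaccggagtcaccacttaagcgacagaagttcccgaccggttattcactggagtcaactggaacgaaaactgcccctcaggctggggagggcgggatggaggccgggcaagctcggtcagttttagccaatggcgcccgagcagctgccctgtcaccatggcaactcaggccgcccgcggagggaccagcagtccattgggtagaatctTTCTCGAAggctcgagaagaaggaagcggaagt
Cct2: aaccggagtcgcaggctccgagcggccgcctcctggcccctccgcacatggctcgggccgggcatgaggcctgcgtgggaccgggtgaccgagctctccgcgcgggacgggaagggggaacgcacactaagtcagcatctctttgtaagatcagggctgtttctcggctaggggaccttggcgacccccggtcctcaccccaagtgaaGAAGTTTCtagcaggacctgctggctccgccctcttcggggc
Dnajb6: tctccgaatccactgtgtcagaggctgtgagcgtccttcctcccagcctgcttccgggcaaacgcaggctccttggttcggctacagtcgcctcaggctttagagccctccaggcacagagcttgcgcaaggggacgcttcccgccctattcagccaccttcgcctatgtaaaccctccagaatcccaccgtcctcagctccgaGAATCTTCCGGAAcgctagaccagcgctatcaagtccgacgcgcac
Hspd1: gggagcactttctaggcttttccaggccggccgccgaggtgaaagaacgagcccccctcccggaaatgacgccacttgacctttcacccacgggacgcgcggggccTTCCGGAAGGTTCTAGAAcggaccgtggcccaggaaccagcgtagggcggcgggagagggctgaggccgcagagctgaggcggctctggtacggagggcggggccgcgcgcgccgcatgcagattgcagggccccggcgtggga

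The called members thus differed in these letters, with 1 match before Hspb6, 2 before Dnaja4 and none in the window of Hspa12a. Hspd1 and Hspe1 lie head to head on chromosome 1, and the window of Hspd1 held 3 overlapping 2-unit matches. That window takes in the GENCODE start of Hspe1 (chr1:55088132), and both genes had equal counts of matches. The matches of Hspe1 may thus be the letters printed for Hspd1.

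Among the small HSPs the 7 tested genes moved apart, with 4 log2 fold changes above 0, 3 below and a median of 0.03 (-0.02 without LLC 1). Hspb8, the partner of Bag3 in chaperone-assisted autophagy, had 300.0, 287, 270.1 and 291 CPM in Control and 314 to 364 CPM in LLC, with a median of 347. Its groups did not overlap, the spread within both was narrow (SD 12.5 and 17.6 CPM) and the log2 fold change of 0.25 ± 0.08 did not pass (adjusted p = 0.0814). Hspb6, which also binds Bag3, thus fell while Hspb8 lay higher in LLC without passing. Bag3 itself had 91.1 to 98.7 CPM in Control and 81.5 to 121 CPM in LLC, with a log2 fold change of 0.01 ± 0.12.

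Hspb7, a small HSP of heart and muscle that binds filamin, had the widest spread of all members. Its Control libraries had 374, 275, 321 and 509.6 CPM. In LLC the level was 1652 CPM in LLC 1, 432 in LLC 5, 285 in LLC 2, 207 in LLC 6, 140.1 in LLC 4 and 135 CPM in LLC 3. Only LLC 1 lay above the Control range, and LLC 3, 4 and 6 lay below it. The log2 fold change was 0.36 ± 0.65, with a 95% interval from -1.06 to 1.79, and turned to -0.62 without LLC 1 (adjusted p = 0.195) and to -0.85 with limma's voom and sample quality weights (adjusted p = 0.0431), where it was called lower. With the replicate number as a block it was -0.30. The direction of Hspb7 was thus not settled.

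The remaining small HSPs did not pass. Hspb1 (known as Hsp25 in the mouse, a protector of actin filaments) had 56.4 to 75.1 CPM in Control and 58.7 to 86.1 CPM in 5 LLC libraries, with 141 CPM in LLC 1, for a log2 fold change of 0.30 ± 0.24 (0.06 without LLC 1). Hspb2 and Hspb3, partners in a muscle complex, were both lowest in LLC 1. Hspb2 had 49.4 to 51.1 CPM in Control, 39.6 to 48.9 CPM in 5 LLC libraries and 18.6 CPM in LLC 1 (log2 fold change -0.29 ± 0.21). Hspb3 had 15.6 to 16.5 CPM in Control, 14.8 to 17.2 CPM in 5 LLC libraries and 6.74 CPM in LLC 1 (-0.18 ± 0.20). Hspb2 shares exonic bases with Cryab on the other strand, a gene at 249 to 442 CPM, and the strand setting of the counting is unknown, so its counts are uncertain. Hspb11, which is known from cilia transport, was rare at 1.69 to 2.63 CPM and had a log2 fold change of 0.03 ± 0.16.

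In the HSP70 class, 7 of 13 log2 fold changes were above 0 and 6 below, with a median of 0.06 (-0.01 without LLC 1). Hspa8, the constitutive HSP70 of the cytosol and 43.8% of the summed CPM of its class in Control, had 732, 636, 699 and 653 CPM in Control and 649.8 to 908 CPM in LLC, with overlap and a log2 fold change of 0.16 ± 0.12. Hspa9, the mitochondrial HSP70, had 507 to 525.8 CPM in Control and 445 to 616 CPM in LLC (-0.05 ± 0.10). Hspa5 (BiP, the HSP70 of the endoplasmic reticulum) had 138 to 149.7 CPM and 116 to 185 CPM (-0.07 ± 0.12). For both, LLC 1 was the highest library, and the other 5 LLC libraries reached 502 CPM for Hspa9 and 139 CPM for Hspa5. The 95% intervals of the 3 log2 fold changes held 0 and ran from -0.34 to 0.42 at their ends.

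Hsph1 (HSP110, a nucleotide exchange factor that resets HSP70) was the HSP70-class gene with the largest positive value. It had 61.8, 61.8, 57.8 and 63.1 CPM in Control and 65.7, 73.6, 81.2, 110.5, 111 and 169 CPM in LLC, in rising order, with LLC 1 the highest and LLC 4 the lowest. The groups did not overlap, and the log2 fold change of 0.74 ± 0.23 did not pass (adjusted p = 0.0791). It passed without LLC 4 (0.83, adjusted p = 0.0399) and with DESeq2 (adjusted p = 0.0258), and without LLC 1 the adjusted p was 0.0303 while the value of 0.54 was under 1.5-fold. Hspa4, a relative with the same role, had 89.7 to 95.9 CPM in Control and 95.5 to 138 CPM in LLC, with overlap (0.22 ± 0.11, adjusted p = 0.206). Hspa2, best known from testis, had 5.04 to 6.54 CPM and 4.24 to 7.20 CPM (0.11 ± 0.16).

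The stress-induced pair Hspa1a and Hspa1b was near the bottom of the class. Hspa1a had 0.59 to 1.15 CPM in Control and 0.64 to 2.01 CPM in LLC (log2 fold change 0.57 ± 0.31, adjusted p = 0.242). Hspa1b had 0.69 to 1.70 CPM and 0.99 to 2.67 CPM (0.55 ± 0.35, adjusted p = 0.311). The groups overlapped for both, and LLC 6 was highest for Hspa1a and LLC 1 for Hspa1b. Of the 100-base windows of their GENCODE transcripts, the read length of the study, 48.6% for Hspa1a and 49.9% for Hspa1b stood unchanged in transcripts of another gene, among them each other, so counts of this pair are uncertain. Over 10% of the windows were shared for 8 members, namely this pair, Hspb1 (44.0%), Hsp90aa1 (38.0%), Hspa8 (28.5%), Hspd1 (23.4%), Dnajb6 (14.6%) and Hspe1 (10.0%), which share them with loci such as the pseudogenes Hsp25-ps1 and Hspd1-ps3. No window was shared for 65 members, among them Hspb6, Dnaja4, Hspa12a, Hsp90ab1 and Hsph1.

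In the HSP90 class the 3 genes had log2 fold changes above 0, and none passed. Hsp90ab1, the constitutive cytosolic HSP90, ranked first of the members by mean level per kilobase of exon over all libraries. It had 795, 854, 793 and 848 CPM in Control and 949, 1038, 1038, 1291, 1556 and 2555 CPM in LLC, in rising order, from LLC 4 to LLC 1. Every LLC library lay above every Control library. The log2 fold change of 0.77 ± 0.26 (1.71-fold) did not pass (adjusted p = 0.0922). Without LLC 1 it was 0.52 with an adjusted p of 0.0229, under 1.5-fold, and with DESeq2 it passed (adjusted p = 0.0307). The SD within LLC was 606 CPM, against 33.2 CPM in Control.

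Hsp90aa1, the stress-induced cytosolic HSP90, had 36.3, 31.3, 32.9 and 35.1 CPM in Control and 36.2 to 55.1 CPM in LLC, with LLC 6 the highest. Its groups overlapped by 1 library (LLC 4 against Control 1), with a log2 fold change of 0.39 ± 0.12 (adjusted p = 0.0825). Hsp90b1 (Grp94, of the endoplasmic reticulum) had 66.2 to 71.6 CPM and 68.2 to 126 CPM, with LLC 1 the highest (0.29 ± 0.16, adjusted p = 0.252). The summed level of the class was 925 ± 29.8 CPM in Control (SD, n = 4) and 1533 ± 632 CPM in LLC (SD, n = 6), without overlap (896 to 951, then 1054 to 2731 CPM), and Hsp90ab1 made up 88.9% of it in Control.

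In the HSP40 class, the largest with 37 tested genes, 22 log2 fold changes were above 0 and 15 below, with a median of 0.07 (0.04 without LLC 1). Dnajc2, a ribosome-bound HSP40, had the largest positive value, with 24.4 to 26.5 CPM in Control and 27.5 to 69.8 CPM in LLC (median 32.6). Its groups did not overlap, LLC 1 was the highest, and the log2 fold change of 0.65 ± 0.23 did not pass (adjusted p = 0.110). Dnajb2, an HSP40 with ubiquitin-binding motifs, had 21.7 to 22.3 CPM and 24.2 to 54.4 CPM, without overlap (0.60 ± 0.20, adjusted p = 0.0915 with edgeR and 0.0414 with DESeq2). Dnajb12, of the endoplasmic reticulum membrane, had 45.7 to 48.8 CPM and 52.2 to 100.5 CPM, without overlap (0.51 ± 0.18, adjusted p = 0.0974). Dnajc21, a ribosome assembly factor, was even within Control (65.4 to 66.4 CPM) and lay at 71.8 to 99.4 CPM in LLC (0.30 ± 0.10, adjusted p = 0.0875). In all 4 LLC 1 was the highest library.

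Dnaja2, the most abundant HSP40 per kilobase and a main partner of Hspa8, had 190.2, 191, 192 and 171 CPM in Control and 199 to 392 CPM in LLC, without overlap (0.45 ± 0.18, adjusted p = 0.136). Dnajb6, which keeps proteins from aggregating and is mutated in a limb-girdle muscular dystrophy, had 72.6 to 81.5 CPM and 80.3 to 182 CPM, with overlap (0.47 ± 0.21, adjusted p = 0.166, and 0.27 without LLC 1). The stress-induced Dnajb1 was rare, at 3.51 to 5.73 CPM in Control and 4.29 to 7.83 CPM in LLC (0.33 ± 0.21), and its Control libraries fell into 2 low and 2 high ones. Dnaja1, a class A partner of HSP70, had 27.9 to 29.8 CPM and 28.7 to 38.3 CPM (0.14 ± 0.10). The mitochondrial Dnaja3 had 110.3 to 114 CPM and 95.6 to 117 CPM (-0.09 ± 0.08), and Dnajb5 had 154 to 169 CPM and 105 to 170.3 CPM (-0.17 ± 0.13). On the lower side, beside Dnaja4, the groups did not overlap for Dnajc4 (13.8 to 14.1 CPM, then 6.99 to 12.0 CPM, -0.40 ± 0.13, adjusted p = 0.0937) and for Dnajc11, a mitochondrial protein (46.8 to 49.3 CPM, then 29.8 to 46.5 CPM, -0.26 ± 0.12, adjusted p = 0.185).

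In the chaperonin class the 9 tested genes had log2 fold changes from 0.05 to 0.51, all above 0, with a median of 0.16 that was also 0.16 without LLC 1, and none was called. The 7 CCT subunits lay at 0.12 to 0.51. Without LLC 1 Hspe1 turned to -0.03, Cct2 and Cct4 fell to 0.34 and 0.31, and only Hspd1 and Cct5 rose, to 0.11 and 0.14. Cct2 had 79.8, 77.7, 79.5 and 72.2 CPM in Control and 80.4 to 177 CPM in LLC, with LLC 1 the highest and no overlap (0.51 ± 0.20, adjusted p = 0.132). Cct4 had 65.7 to 76.6 CPM and 73.5 to 147 CPM, with overlap (0.45 ± 0.19, adjusted p = 0.162). Cct7 had 87.9 to 98.4 CPM and 101 to 136 CPM, without overlap (0.29 ± 0.10, adjusted p = 0.112), and its highest library was LLC 5. Cct5 had 90.4 to 101 CPM and 92.0 to 124 CPM (0.13 ± 0.10). Although the subunits build 1 ring, LLC 1 stood at 177 CPM for Cct2 and at 102 CPM for Cct5, which in Control had 77.3 and 94.97 CPM on average. The mitochondrial pair had values near 0, with 172 to 182 CPM and 154 to 195 CPM for Hspd1 (0.06 ± 0.09) and 42.3 to 47.9 CPM and 36.2 to 60.3 CPM for Hspe1 (0.05 ± 0.13). LLC 1 was the lowest LLC library for Hspd1 and the highest for Hspe1, genes whose exons overlap on opposite strands.

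Of the 6 BAG genes, which reset HSP70 or link it to degradation, none passed. Bag6, which guides proteins to degradation and to membranes, had 116 to 130.4 CPM in Control and 131 to 224 CPM in LLC, without overlap (0.33 ± 0.15, adjusted p = 0.181). Bag2, an inhibitor of the ubiquitin ligase Stub1, had 16.8 to 18.9 CPM and 8.28 to 16.4 CPM, also without overlap but lower (-0.38 ± 0.17, adjusted p = 0.166), and LLC 1 was its lowest library. Bag1, the most abundant BAG gene per kilobase, had 121 to 131 CPM and 111 to 140.3 CPM (0.00 ± 0.08, 95% interval from -0.18 to 0.18).

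**Figure D2:**
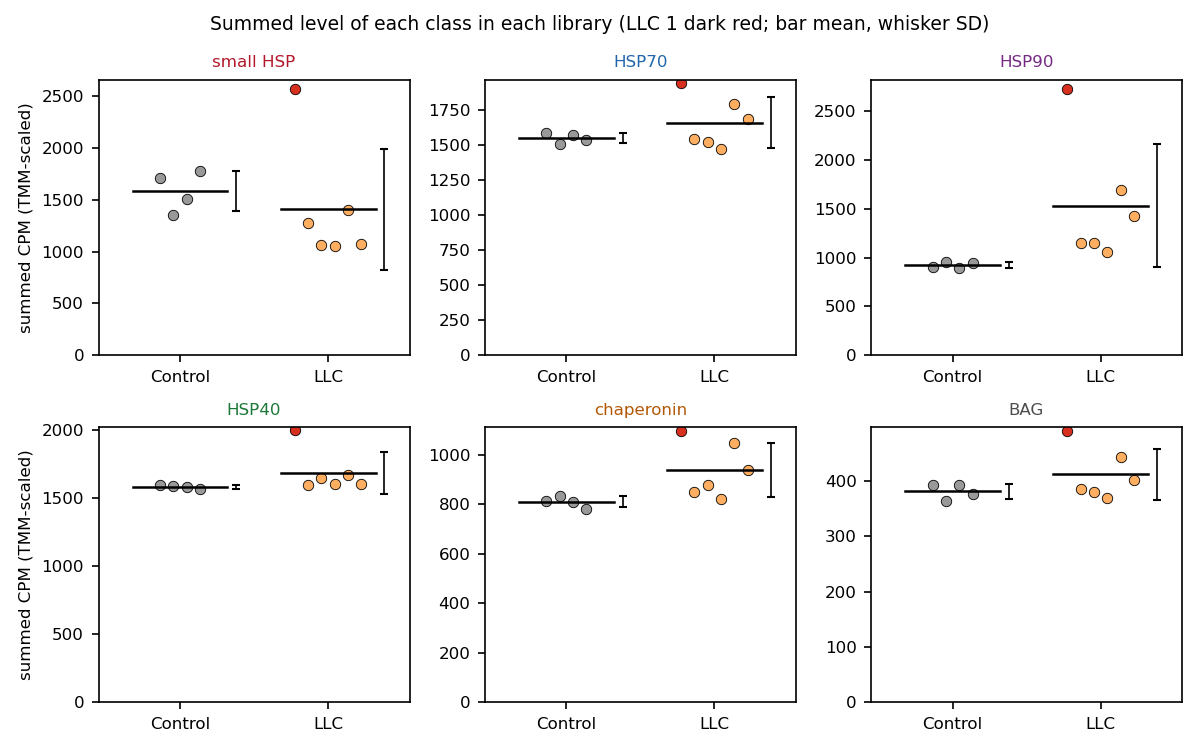
Summed level (CPM, y axis from 0) of each class in each Control library (grey) and LLC library (orange, LLC 1 in dark red), with the group mean as a line and the SD as a whisker. The HSP90 sums of the groups do not overlap, the small HSP sum is 2572 CPM in LLC 1 and 1056 to 1404 CPM in the other LLC libraries, and the remaining classes overlap.

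The classes differed in how their summed levels stood. The members together had 6836 ± 191 CPM in Control (SD, n = 4) and 7636 ± 1666 CPM in LLC (SD, n = 6). The small HSP sum was 1586 ± 195 CPM in Control and 1056 to 1404 CPM in LLC 2 to LLC 6, with 2572 CPM in LLC 1. In that library Hspb6 made up 15.6% of the sum, against 50.2% in Control. The HSP70 sum was 1551 ± 36.8 CPM in Control and 1659 ± 183 CPM in LLC, the HSP40 sum 1582 ± 15.5 and 1684 ± 155 CPM, the chaperonin sum 810.3 ± 22.8 and 939 ± 111 CPM, and the BAG sum 381 ± 13.7 and 412 ± 46.4 CPM, each with overlap between the groups. By class median the order was HSP90 (0.39), chaperonin (0.16), HSP40 (0.07), HSP70 (0.06), BAG (0.06) and small HSP (0.03), beside 0.00 over all genes. These medians are descriptions, and no class was tested.

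**Figure D3:**
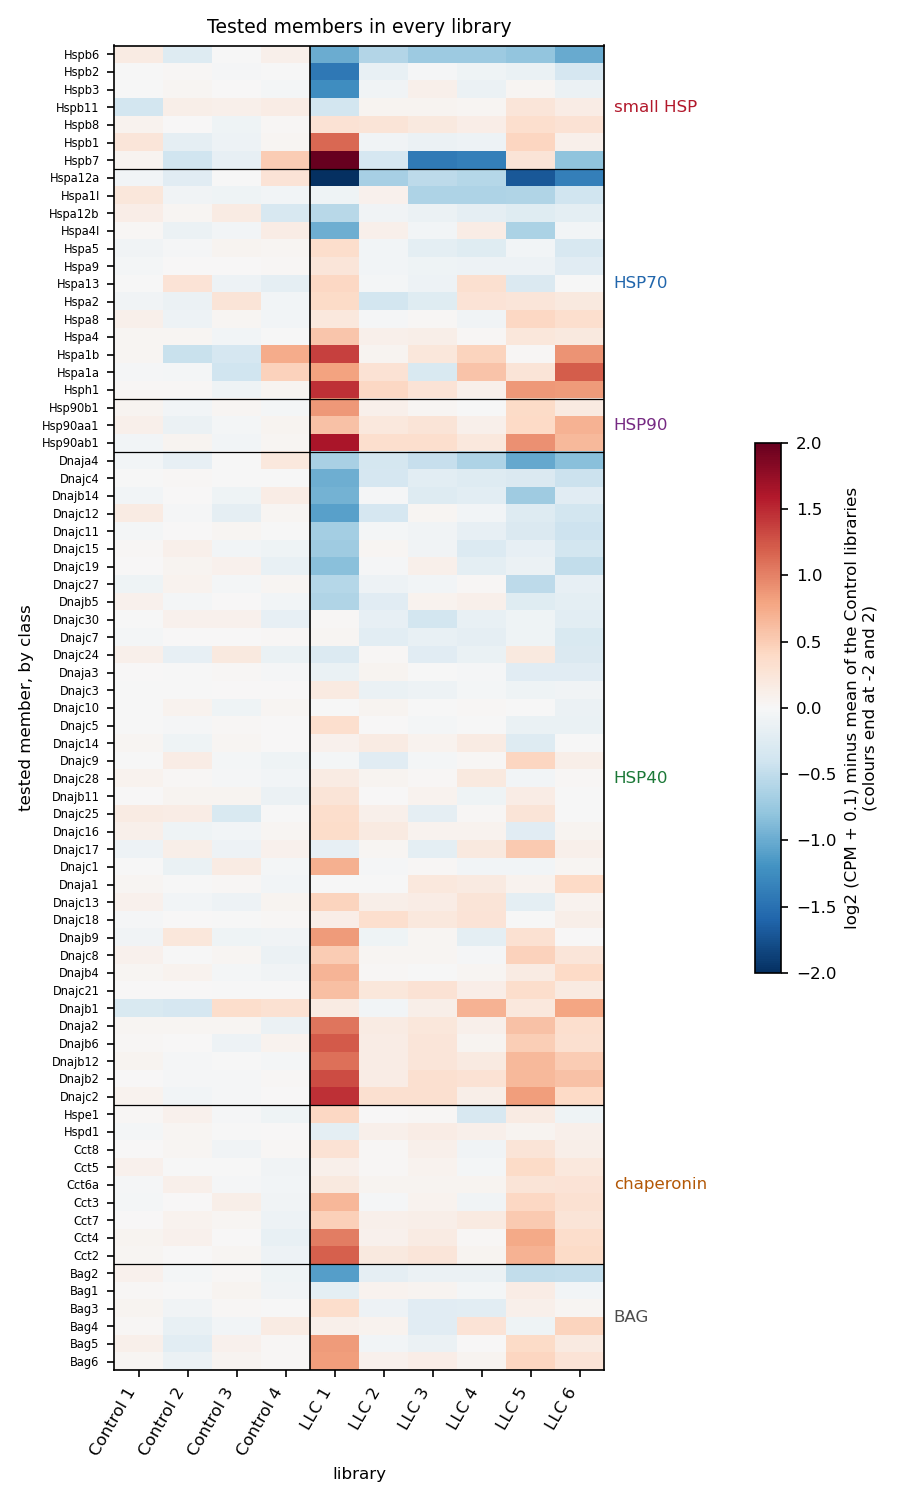
Level of the 75 tested members (rows, by class) in each library (columns), as log2 (CPM + 0.1) minus the mean of the Control libraries, with red above and blue below. LLC 1, with 46 members above and 21 below the Control range, and LLC 5, with 37 and 24, carry the deepest colours, and Hspb6 and Dnaja4 are blue in all 6 LLC libraries.

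The members varied more among LLC libraries than among Control libraries. Their SD on the log2 CPM scale was larger within LLC for 68 of 75 members (90.7%), beside 85.1% of all genes. LLC 1 was the LLC library farthest from the Control mean for 52 members (69.3%), beside 55.4% of all genes. It was the highest LLC library for 37 members and the lowest for 18, beside 32.8% and 33.2% of all genes. Against the range of the 4 Control libraries, 46 members (61.3%) lay above and 21 (28.0%) below in LLC 1, where 40.0% and 42.6% of all genes did. The counts above and below were 23 and 18 in LLC 2, 24 and 21 in LLC 3, 25 and 22 in LLC 4, 37 and 24 in LLC 5, and 31 and 25 in LLC 6. In LLC 2 to 6, 30.7%, 32%, 33.3%, 49.3% and 41.3% of members lay above, where 26.1%, 27.9%, 27.1%, 36.4% and 33.7% of all genes did. Below lay 24%, 28%, 29.3%, 32% and 33.3% of members, beside 27.3%, 28.3%, 28.1%, 38.9% and 33.5% of all genes. The larger counts above in LLC 1, 5 and 6 went with larger shares over all genes, which the members exceeded. The members took 0.628% to 0.661% of all counts in Control, 1.26% in LLC 1, 0.856% in LLC 5 and 0.633% to 0.748% in the other LLC libraries. LLC 1 also had the lowest muscle fibre marker sum and mitochondrial share, and the part of either in its chaperone levels was not tested.

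With LLC 1 left out and no fold threshold, a setting chosen after the data were seen, 11 members passed an adjusted p of 0.05 with edgeR. Of these 7 were higher (9.33%, beside 5.51% of all genes), namely Hspb8, Hsph1, Hsp90ab1, Dnajb2, Dnajb12, Dnajc2 and Dnajc21, and 4 were lower (5.33%, beside 8.72%), namely Hspb6, Hspa12a, Dnaja4 and Dnajc4. The groups did not overlap without LLC 1 for 12 higher (16.0%, beside 7.38%) and 10 lower members (13.3%, beside 10.8%). Hsp90ab1 and Hsph1 had smaller log2 fold changes without that library (0.52 and 0.54, from 0.77 and 0.74) and smaller adjusted p-values.

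**Figure D4:**
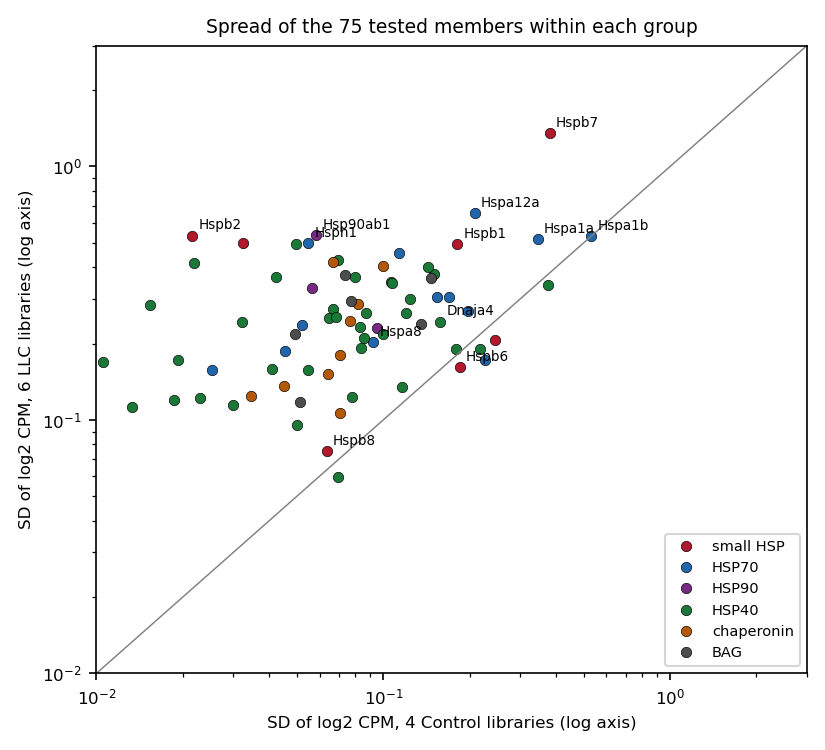
SD of log2 CPM of each tested member in the 4 Control libraries (x axis) against the 6 LLC libraries (y axis), both log axes, coloured by class, with the diagonal in grey. 68 of 75 points lie above the diagonal, Hspb7 is the highest at 1.35, and Hspb6 and Hspb8 lie close to the line.

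The spread within LLC also ranked the members. Hspb7 had an SD of log2 CPM of 1.35 in LLC and 0.38 in Control, Hspa12a 0.65 and 0.21, Hsp90ab1 0.54 and 0.06, and Hsph1 0.50 and 0.05. Hspb2 and Hspb3, each lowest in LLC 1, had 0.53 and 0.50 in LLC with 0.02 and 0.03 in Control. By contrast Hspb6 had 0.16 in LLC and 0.18 in Control, and Hspb8 0.08 and 0.06. The 2 small HSPs whose groups were apart with like spread in both, Hspb6 and Hspb8, thus stood beside members with a wider spread in LLC. For Hspb2 and Hspb3 that spread lay mainly in LLC 1, at 18.6 and 6.74 CPM.

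Genes of the same pathways outside the families were listed apart. Of 4 heat shock transcription factors, 3 were tested and none was called, although all 3 had log2 fold changes above 0. Hsf1 had 31.8 to 34.2 CPM in Control and 32.5 to 57.6 CPM in LLC (0.34 ± 0.14, adjusted p = 0.154), and Hsf2 had 21.2 to 24.4 CPM and 21.9 to 40.5 CPM (0.27 ± 0.17, adjusted p = 0.324). Hsf4, singled out after its values were seen, had 5.78 to 7.46 CPM and 8.31 to 20.3 CPM, without overlap (0.89 ± 0.25, adjusted p = 0.0531), and was called with DESeq2 (adjusted p = 0.00951) and without LLC 1 (0.71, adjusted p = 0.0239). Of 39 cochaperones and assembly factors, none was called, 29 log2 fold changes were above 0 and 10 below, and the median was 0.06. At an unadjusted p of at most 0.05, 9 of the 39 were higher and 1 lower, where 12.7% and 14.6% of all genes were. Fkbp5 (an HSP90 cochaperone induced by glucocorticoids), singled out after its values were seen, had 21.6 to 28.7 CPM and 29.8 to 293 (LLC 1) CPM, without overlap (1.79 ± 0.61, adjusted p = 0.0975), and passed without LLC 1 (0.91, adjusted p = 0.0184). Ptges3 (p23, an HSP90 cochaperone), chosen likewise, had 29.5 to 33.4 CPM and 36.7 to 79.2 CPM, without overlap (0.71 ± 0.22, adjusted p = 0.0748), and was called with DESeq2 (adjusted p = 0.0234). Cryab (alpha-B crystallin, a small HSP by structure) had 304 to 442 CPM and 249 to 372 CPM (-0.11 ± 0.13), and Tcp1, the CCT subunit whose symbol lies outside the rule, had 106 to 117 CPM and 115 to 192 CPM (0.31 ± 0.14, adjusted p = 0.188). Unc45b, the myosin chaperone, had 261 to 294 CPM and 213 (LLC 1) to 344 CPM (0.14 ± 0.13), Stub1 had 20.05 to 26.9 CPM and 12.5 to 24.5 CPM (-0.25 ± 0.16), and Serpinh1, the collagen chaperone, had 36.7 to 46.3 CPM and 20.6 to 37.1 CPM (-0.39 ± 0.15, adjusted p = 0.124).

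A list of 20 genes for the endoplasmic reticulum held folding proteins and also regulators such as Xbp1, Atf4 and Ddit3. Of the 20, 1 was called, lower, where 3.99% of all tested genes were called lower. Ddit3 (Chop, a transcription factor induced by unfolded proteins) fell from 20.2, 15.7, 17.8 and 16.5 CPM in Control to 8.03 to 13.3 CPM in LLC, without overlap (-0.76 ± 0.13, adjusted p = 0.00562). Of the list, 13 log2 fold changes were above 0 and 7 below, with a median of 0.10 (0.03 without LLC 1). Hyou1, an HSP70 relative of that compartment that is in both lists, had 22.6 to 27.6 CPM and 21.9 to 27.4 CPM (0.03 ± 0.09). The HSP70 and HSP90 of the same compartment, Hspa5 and Hsp90b1, did not pass in either direction.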

How the data were processed

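RNA of 4 Control and 6 LLC tibialis anterior muscles was measured. Per the authors, stranded total RNA libraries were sequenced as paired reads, mapped to mm10 with TopHat2 and counted with HTSeq at default settings for RefSeq genes. The deposited files hold raw read counts as whole numbers, without normalization or pooling, 1 per library. They list Ensembl identifiers, so the annotation release and strand setting were taken as unknown. Symbols, coordinates and exon lengths came from GENCODE M21 (37693 of 39179 identifiers matched), and protein-coding status from it or RefSeq. Small RNA libraries were not analysed here.

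Genes were kept by filterByExpr (minimum 10), scaled by TMM and fitted in edgeR 4.0.16 (R 4.3.3) on the group alone, and p-values were adjusted by Benjamini-Hochberg over all 12690 genes. SEs came from the F statistic, and a prior count of 2 was added for log2 CPM. DESeq2 1.42.0 and limma 3.58.1 (voom) were alternatives, beside other scalings, filters, thresholds, a replicate block and each library left out. The fits were tested on simulated data. The replicate numbers belong to different animals, and no pair of libraries agreed within sampling noise (chi-square per degree of freedom 3.71 to 8.11 in Control and 7.92 to 181 in LLC). The detection floor covers counting error alone, as PCR copies were not told apart by molecular identifiers.

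Named genes were the called members, 23 members fixed by name, the 3 most abundant per kilobase and the 1 with the largest change in each class, and of the related lists the called genes and 8 fixed ones. Hspb11, Hsf4, Fkbp5, Ptges3, Dnajb2, Dnajb12, Dnajc4, Dnajc11, Dnajc21, Cct4 and Cct7 were added after their values were seen. The members and lists were chosen with earlier results of these data known.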

Additional observations from a re-analysis of the deposited data

Results flagged for a closer look

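In 18 of 100 groups tested (50 measures in each of the 2 groups), 1 library stood apart from the rest of its group, by the gap to its nearest neighbour as a share of the range of the group. Chance flags about 1 in 20 groups, or 5 of 100. The measures come from the same libraries, and the class sums hold members listed beside them, so the 18 flags are not independent. LLC 1 was the LLC library farthest from the Control mean for 55.4% of all genes. The share of all genes flagged in this way was not taken. In 14 of the 18 the library was LLC 1, 9 times the highest and 5 times the lowest. It was the highest LLC library for Hspa4 (gap 0.677 of the range), Hspa5 (0.662), Hspa9 (0.662), Hsp90b1 (0.627), Hspb1 (0.668), Hspb7 (0.804) and Dnajb6 (0.713), and for the summed levels of the small HSP (0.770) and HSP40 (0.817) classes. It was the lowest for Hspb2 (0.694), Hspb3 (0.766), Hspd1 (0.711), Stub1 (0.666) and Unc45b (0.712). In Control, Hspa2 was highest in Control 3 (0.853), Dnaja2 lowest in Control 4 (0.912), Bag6 lowest in Control 2 (0.845) and Hsf2 lowest in Control 3 (0.844).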

How the results depend on the processing

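With voom, 3 members were called lower as with edgeR, but Hspb7 (-0.85, adjusted p = 0.0431) took the place of Dnaja4 (-0.57, under 1.5-fold). Members called higher numbered 0 with edgeR, 3 with DESeq2 and 4 at an unadjusted p of 0.05 with the fold threshold. Shares of all genes that passed were taken for edgeR, for DESeq2 and for the setting without LLC 1 and with no fold threshold. They were not taken for voom, that unadjusted setting or the other alternatives. Without LLC 1 and with no fold threshold 7 were called higher. Over the fits that leave out 1 library 0 to 1 were (1 without LLC 4, Hsph1). Members called lower numbered 3, and 1 to 3 over those fits (1 without Control 4 or LLC 5). With the replicate number as a block, a pairing that the labels do not support, none was called and Hspb6 had a log2 fold change of -0.76 with an adjusted p of 0.125. The deviations of same-numbered libraries correlated at -0.029, 0.0093, -0.081 and 0.126, and 1 of 4 Control libraries correlated best with its own number. Heat shock factors called higher numbered 0, but 1 with DESeq2, upper-quartile factors, no filter on low counts or an unadjusted p, and 0 to 1 with a library left out. Cochaperones called higher numbered 0, but 1 with DESeq2 or voom, 2 at an unadjusted p, and 0 to 1 with a library left out. In the endoplasmic reticulum list 1 gene was called lower, but 0 with the block and 1 to 2 with a library left out. With no fold threshold 2 were (Eif2ak3 beside Ddit3). The small HSP median became -0.30 with the block, and the HSP40 median 0.0011 with voom.

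Of 43 named genes 34 kept the sign of their log2 fold change under every alternative, and 9 did not. With voom, Hspa2 became -0.044, Hspb1 -0.026, Hspb7 -0.85, Hspe1 -0.055 and Bag3 -0.12. With the block, Hspa9 became 0.00013, Hspb7 -0.30, Bag3 -0.046 and Bag1 -0.028. With upper-quartile factors, which moved the median of all genes by -0.034, Bag3 became -0.034, Bag1 -0.032 and Hyou1 -0.0062. With at least 10 counts in every sample Bag3 became -0.0052 and Bag1 -0.0099, and with mitochondrial genes left out Bag1 became -9.0e-05. With 1 library left out, Hspb7 ran from -0.62 (without LLC 1) to 0.55, Hspe1 from -0.027 (without LLC 1) to 0.12, Bag3 from -0.066 to 0.048, Bag1 from -0.030 to 0.044, Cryab from -0.18 to 0.011 (without Control 4) and Hyou1 from -0.0093 to 0.090. The call of Hspb6 was lost in 1 of 20 alternatives, that of Dnaja4 in 4 and that of Hspa12a in 8. The causes were not tested. At this depth the 95% interval of Hspa1a, at 0.59 to 2.01 CPM, ran from -0.10 to 1.24.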
